A study of Mus musculus with 21 samples.

Results

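The transcription factors, cadherins and filament protein of the epithelial-to-mesenchymal transition (EMT) were followed across rhabdomyosarcomas (RMS) of 2 mouse genotypes. The set of 10 genes was Snai1, Snai2, Twist1, Twist2, Zeb1, Zeb2, Prrx1, Cdh1, Cdh2 and Vim, chosen by name. Of these, 9 were named by the annotation of the array, each by 1 probe set, among 19505 genes and 22206 probe sets tested. Zeb2 is not named by that annotation and has no value here. NPE tumors (n = 14) came from mice heterozygous for Neu1 and Ptch1 with a hemizygous ETV7 transgene (Neu1+/−/Ptch1+/−/ETV7 TG+/−). PE tumors (n = 7) came from mice with the same Ptch1 and ETV7 alleles but without the Neu1 deletion (Ptch1+/−/ETV7 TG+/−). Both groups therefore lack 1 Ptch1 allele and carry the human ETV7 gene. RNA of each frozen trunk or limb tumor was read on 1 Clariom S Mouse array, and the values are log2 signals. Neu1 heterozygous FVB/NJ mice were bred into the line with the other alleles, which was of another, mixed background, and PE and NPE mice came from 1 breeding scheme but not always from the same litters. Mice of both sexes and over a wide range of ages were used. The labels give neither the site, the sex nor the age of a tumor's mouse, so site and age cannot be set beside the values. Sex can be only through the signal of Y-linked genes.

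EMT is the program by which cells give up epithelial junctions and take on a migratory, mesenchymal form. Snail, Twist, Zeb and Prrx1 proteins drive it. Several of them bind E-boxes, short DNA motifs in promoters such as that of Cdh1, and repress E-cadherin, while N-cadherin and vimentin are classic mesenchymal products. Skeletal muscle is of mesodermal origin, so these genes have other roles there. N-cadherin joins myoblasts, Twist proteins hold back myogenic regulators, and vimentin fills immature muscle cells before desmin takes over.

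The E-box that Snail and Zeb proteins prefer, CACCTG, which reads as CAGGTG on the opposite strand was searched in the RefSeq promoters of GRCm38.p6, which run from 250 bases before to 50 bases after each start. Promoters of 6 of the 10 genes were used (Snai1, Twist1, Twist2, Zeb2, Prrx1 and Vim). The motif was in that of Snai1 and in none of the others, and it was in 20.2% of all 32851 promoters of this length. The looser E-box CANNTG, which includes CACCTG and reads the same on both strands, was in 72.3% of them. Among the 6 genes it too was in the promoter of Snai1 and in none of the others. The promoters of Snai1 and Vim are shown, since both genes followed the fibroblast genes across the tumors, as described further on. Capitals mark CANNTG, and the Vim window holds none. A match is a description of the letters and not a bound site. They lie on the plus strand at chr2:167537945-167538244 for Snai1 and at chr2:13574061-13574360 for Vim.
Snai1 promoter: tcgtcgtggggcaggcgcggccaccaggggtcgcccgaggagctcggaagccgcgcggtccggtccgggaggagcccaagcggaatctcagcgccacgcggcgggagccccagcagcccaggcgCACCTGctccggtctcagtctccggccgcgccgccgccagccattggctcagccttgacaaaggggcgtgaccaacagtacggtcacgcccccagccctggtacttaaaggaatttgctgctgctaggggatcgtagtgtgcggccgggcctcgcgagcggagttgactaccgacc
Vim promoter: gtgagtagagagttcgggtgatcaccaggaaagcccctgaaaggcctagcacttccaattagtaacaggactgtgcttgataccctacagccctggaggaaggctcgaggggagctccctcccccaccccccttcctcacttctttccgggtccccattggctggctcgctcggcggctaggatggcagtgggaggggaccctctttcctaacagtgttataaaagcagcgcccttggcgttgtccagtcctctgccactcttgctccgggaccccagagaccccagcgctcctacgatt

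Muscle markers were read in both groups, and Neu1 was lower in most NPE tumors without passing the test. Myod1, the myogenic master regulator, averaged a log2 signal of 8.13 ± 0.72 in NPE and 8.60 ± 0.31 in PE tumors (s.d.), and Des, which encodes desmin, averaged 10.40 ± 0.45 in NPE and 10.63 ± 0.18 in PE tumors. Of 11 myogenic regulator and embryonic muscle genes, 2 had a higher and 9 a lower mean in NPE tumors (median log2 fold change -0.47). All 12 mature muscle fibre genes had a higher mean in NPE tumors (median 0.71). Of these 12, 3 passed an unadjusted p of 0.05 (limma), where 8.41% of all probe sets did, and 0 passed after adjustment. NPE tumor 3 lay apart, with a mean of 5.83 over the 11 myogenic genes, against 7.70 to 9.40 in the other NPE tumors and 8.31 to 9.24 in PE tumors. Neu1 was 6.36 ± 0.18 in NPE and 6.62 ± 0.19 in PE tumors, and 11 of 14 NPE tumors lay below every PE tumor (log2 fold change -0.27, adjusted p = 0.513, limma). Each tumor title ends in a number of unstated meaning, and these numbers form 3 ranges. With numbers from 1 to 10 there were 8 NPE tumors and 0 PE tumors. With numbers from 18 to 23 there was 1 NPE tumor beside 5 PE tumors, and with numbers from 28 to 35 there were 5 NPE tumors beside 2 PE tumors. NPE tumors 1 and 3, both in the first range, stand apart for several of the genes and had the lowest array weights in limma, 0.31 and 0.36, against 0.42 to 2.01 in the others. They were not alike in other markers. The mean of the mature muscle fibre genes was 11.53 in NPE tumor 1, the highest of all tumors, and 8.09 in NPE tumor 3, the lowest among NPE tumors. Means of adipocyte genes were 9.44 in NPE tumor 1 and 6.29 in NPE tumor 3, and those of cell cycle genes 4.81 and 6.96. By nearest neighbor over the deviations of all genes, 7 pairs of tumors were mutual. Of these, 3 were averaged in an alternative chosen from earlier results, namely NPE tumors 7 and 8 (r = 0.47), NPE tumors 11 and 12 (0.71) and PE tumors 6 and 7 (0.68). NPE tumors 1 and 2 (0.50) were more alike than the first of these and were not averaged. The study calls its tumors independent, and the labels do not say which mouse each came from.

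No gene of the set passed the test between the genotypes. At an adjusted p of 0.05 (limma, Benjamini-Hochberg over all probe sets) 0 of 9 passed, where 0.00901% of all probe sets did. At an unadjusted p of 0.05 it was again 0 of 9, where 8.41% of all probe sets passed, and ordinary least squares for each gene alone also passed 0 of 9 at either threshold. In 6 of 42 other settings 1 or 2 genes passed the unadjusted threshold, and these are given with each gene. Of the 9, 3 had a higher mean and 6 a lower mean in NPE tumors. Their median log2 fold change was -0.02, and over all 19505 genes 49.7% had a higher mean, with a median of -0.00. The intervals of the differences were narrow for Zeb1 and Vim, and broad for Twist2 and Cdh2, whose NPE tumors spread widely.

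**Figure D1:**
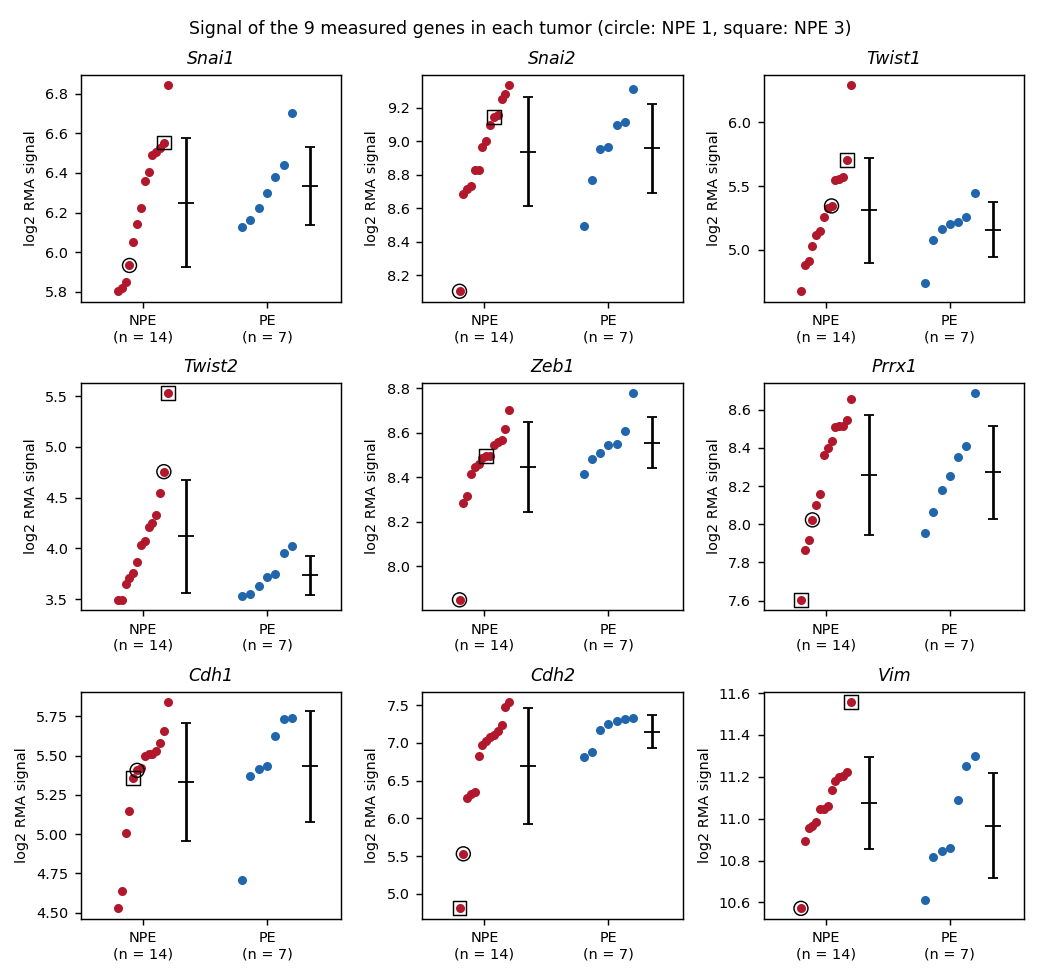
Log2 RMA signal (vertical axes, scaled for each gene) of the 9 measured genes in 14 NPE tumors (red) and 7 PE tumors (blue). Each point is a tumor, and bars beside the points are the mean and s.d. A circle marks NPE tumor 1 and a square NPE tumor 3. Cdh2 reaches down to 4.81 and Twist2 up to 5.53 in NPE tumors, while the PE tumors of both genes lie close together.

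The Snail factors had closely similar medians in both groups. Snai1 (probe set TC0200002589.mm.2), a zinc finger repressor of E-cadherin, had a lowest, median and highest signal of 5.80, 6.29 and 6.84 in NPE tumors, against 6.13, 6.30 and 6.70 in PE tumors. NPE tumor 5 was the highest, and 5 NPE tumors lay below every PE tumor, so the NPE tumors reached past the PE tumors on both sides. The genotypes differed by a log2 fold change of -0.08 (95% interval -0.36 to 0.19, adjusted p = 0.905, limma). With the mean of 3 Y-linked genes as a covariate it was -0.26 (unadjusted p = 0.0190, adjusted p = 0.684, limma). Snai2 (TC1600000184.mm.2), its paralog known from neural crest and muscle stem cells, had 8.10, 8.98 and 9.34 in NPE tumors, against 8.49, 8.97 and 9.31 in PE tumors. The groups overlapped almost whole, and the lowest value belonged to NPE tumor 1. Their difference was -0.02 on the log2 scale (95% interval -0.31 to 0.26, adjusted p = 0.984, limma).

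The Twist factors, basic helix-loop-helix proteins of the mesoderm, leaned upward in some NPE tumors. Twist1 (TC1200000297.mm.2) had a lowest, median and highest signal of 4.68, 5.30 and 6.29 in NPE tumors, against 4.74, 5.21 and 5.45 in PE tumors. NPE tumor 4 stood highest, and 5 of 14 NPE tumors lay above every PE tumor. Its log2 fold change was 0.15 (95% interval -0.18 to 0.48, adjusted p = 0.841, limma). Twist2 (TC0100000899.mm.2) had 3.49, 4.05 and 5.53 in NPE tumors, against 3.53, 3.72 and 4.02 in PE tumors. NPE tumors 3, 1 and 4 were highest, at 5.53, 4.76 and 4.54. In all, 8 of 14 NPE tumors lay above every PE tumor and 2 lay below. Of these 8, 7 were among the 8 tumors with title numbers 1 to 10, which hold no PE tumor. The log2 fold change was 0.38 (95% interval -0.04 to 0.81, adjusted p = 0.624, limma), and an exact permutation test of Twist2 alone, 2-sided over 116280 splits of the tumors, gave p = 0.0883. Without NPE tumors 1 and 3 it was 0.21, as it was with array weights. With the title ranges as a block, where numbers 1 to 10 add nothing to the difference for want of PE tumors, it was 0.03. Among numbers 28 to 35 it was -0.05. It was larger with like tumors averaged, at 0.49 (unadjusted p = 0.0363, adjusted p = 0.729, limma). With tumors of the same number as a replicate block it was 0.68 (unadjusted p = 0.00604, adjusted p = 0.130, limma), although the numbers do not pair the tumors. That fit held only tumors 1 to 7 of each group, so NPE tumors 8 to 14 were left out of it. Without NPE tumor 7 or 8 the log2 fold change of Twist2 was 0.43 each time (unadjusted p = 0.0434 and 0.0436, limma).

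Zeb1 and Prrx1 had small differences between the groups. Zeb1 (TC1800000029.mm.2), a zinc finger and homeodomain repressor, had a lowest, median and highest signal of 7.85, 8.49 and 8.70 in NPE tumors, against 8.42, 8.54 and 8.78 in PE tumors. NPE tumor 1 lay far below the rest, and no NPE tumor lay above every PE tumor. Its log2 fold change was -0.11 (95% interval -0.29 to 0.07, adjusted p = 0.772, limma). Prrx1 (TC0100003409.mm.2), a homeobox factor of limb mesenchyme, had 7.60, 8.38 and 8.66 in NPE tumors, against 7.95, 8.25 and 8.69 in PE tumors. The lowest value was that of NPE tumor 3, and 3 NPE tumors lay below every PE tumor. That is a log2 fold change of -0.01 (95% interval -0.29 to 0.26, adjusted p = 0.987, limma).

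Neither cadherin passed the test between the groups. Cdh1 (TC0800001255.mm.2), which encodes E-cadherin of epithelial junctions, had a lowest, median and highest signal of 4.53, 5.46 and 5.84 in NPE tumors, against 4.71, 5.43 and 5.74 in PE tumors. The lowest values were those of NPE tumors 5 and 6, at 4.53 and 4.64, and of PE tumor 6, at 4.71, so both groups held tumors of low Cdh1. The means differed by a log2 fold change of -0.10 (95% interval -0.44 to 0.24, adjusted p = 0.907, limma). Without PE tumor 6 it was -0.22. The ranges of title numbers went opposite ways, with -0.44 among 18 to 23, which hold 1 NPE tumor (unadjusted p = 0.0534, limma), and 0.48 among 28 to 35, which hold PE tumor 6 (unadjusted p = 0.0312, adjusted p = 0.275, limma). Cdh2 (TC1800001026.mm.2), which encodes N-cadherin, had 4.81, 7.00 and 7.54 in NPE tumors, against 6.82, 7.25 and 7.34 in PE tumors. NPE tumors 3, 1, 5, 2 and 6, at 4.81, 5.53, 6.26, 6.32 and 6.35, lay below every PE tumor, while NPE tumors 14 and 9, at 7.54 and 7.47, lay above every PE tumor. All of these NPE tumors have title numbers 1 to 10. The log2 fold change was -0.46 (95% interval -1.03 to 0.12, adjusted p = 0.674, limma), and an exact permutation test of Cdh2 alone, 2-sided, gave p = 0.142. It was -0.20 without NPE tumors 1 and 3, -0.29 with array weights and -0.28 with the Y-linked covariate. With the title ranges as a block, where numbers 1 to 10 add nothing to the difference for want of PE tumors, it was 0.08. Among numbers 28 to 35, where both groups lie between 6.82 and 7.23, it was 0.22. With the replicate block, which held only tumors 1 to 7 of each group, it was -0.94 (unadjusted p = 0.00935, adjusted p = 0.156, limma). That fit kept NPE tumors 3, 1, 5, 2 and 6 and left out the NPE tumors of higher number. The Y-linked mean, a stand-in for the sex of the mouse, ran from 2.35 to 7.44 across the NPE and from 2.52 to 7.16 across the PE tumors. Beyond its use as a covariate, its part in these values was not tested.

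Vim (TC0200000240.mm.2), the intermediate filament of mesenchymal cells, had a lowest, median and highest signal of 10.57, 11.05 and 11.56 in NPE tumors, against 10.61, 10.86 and 11.30 in PE tumors. The highest tumor was NPE tumor 3 and the lowest NPE tumor 1, with the PE tumors between them. The difference of the means was a log2 fold change of 0.11 (95% interval -0.12 to 0.33, adjusted p = 0.833, limma). It was 0.05 without PE tumor 7. With the title ranges as a block, a fit to which numbers 1 to 10 add no difference, it was 0.18. Tumors numbered 18 to 23 gave -0.08 and those numbered 28 to 35 gave 0.33 (unadjusted p = 0.0346, adjusted p = 0.288, limma).

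**Figure D2:**
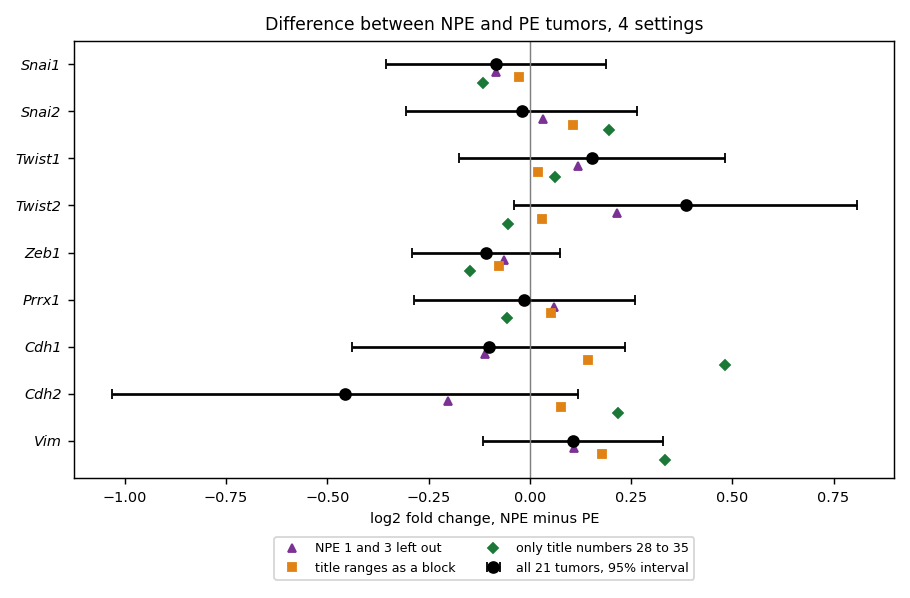
Log2 fold change of NPE minus PE tumors (horizontal axis) for each gene. Black points with bars are the difference over all 21 tumors and its 95% interval from limma, and the colored marks are the same difference in 3 other settings, without bars. All 9 intervals include 0, and the marks of Cdh2 run from -0.20 without NPE tumors 1 and 3 to 0.22 among title numbers 28 to 35.

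How bright a probe set was against the array's own background sets how its differences read, since weak probe sets compress changes. Snai2, Zeb1, Prrx1 and Vim were above the 95th percentile of the background probes in 21 of 21 tumors. Cdh2 was so in 16 and Snai1 in 2. Twist1, Twist2 and Cdh1 were so in 0, although all 9 genes were above the median of the background probes in every tumor. The differences between tumors in Twist2 were thus measured at a dim probe set. Those of Cdh2 were too at their low end, since the 5 tumors not above that percentile were NPE tumors 1, 2, 3, 5 and 6, which held the lowest Cdh2.

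NPE tumors had the larger s.d. for 8 of 9 measured genes, as they did for 75.8% of all genes, and no gene of the set passed the test of scatter after adjustment. That test also passed none of the probe sets whose spread was changed in simulated data, so missing its threshold says little. The s.d. of Cdh2 was 0.77 in NPE and 0.21 in PE tumors, that of Twist2 0.56 in NPE and 0.19 in PE tumors, and that of Twist1 0.41 in NPE and 0.22 in PE tumors. For Vim it was the other way round, with 0.22 in NPE and 0.25 in PE tumors. In a limma test of absolute deviations from the group mean, 0 of 9 genes passed an adjusted p of 0.05, where 0.018% of probe sets did. Cdh2 was the only one past an unadjusted p of 0.05 with the larger spread in NPE tumors (mean deviation 0.62 in NPE and 0.19 in PE tumors, unadjusted p = 0.0185, adjusted p = 0.503), and 7.46% of all probe sets were. Without NPE tumors 1 and 3 the difference in mean deviation of Cdh2 was 0.17, against 0.43 with them. Over all 21 tumors, the s.d. of Cdh2 was at percentile 94.9 among the 19505 genes and that of Twist2 at 88.9. Zeb1, at percentile 17.0, was among the steadier genes.

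**Figure D3:**
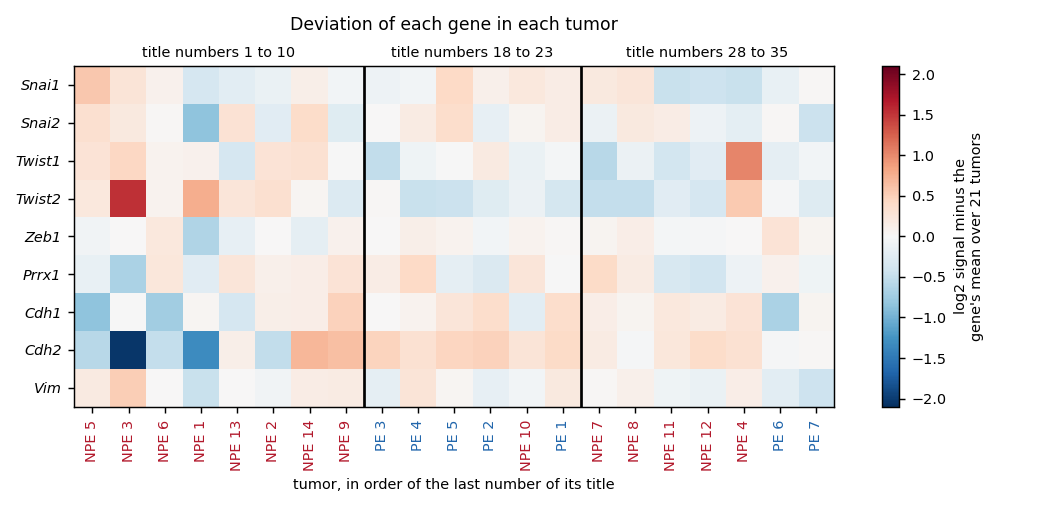
Deviation of each gene's log2 signal from its own mean over 21 tumors (color), with genes in rows and tumors in columns, in order of the last number of the title. Red labels are NPE and blue labels PE tumors, and black lines part the 3 ranges of numbers. The strongest colors are Cdh2 and Twist2 in NPE tumors 3 and 1, in opposite directions, and Twist1 in NPE tumor 4.

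Across the 21 tumors, whichever the genotype, 2 of 36 pairs of genes were correlated at an adjusted p of 0.05 (permutation test, 100000 resamples, 2-sided, Benjamini-Hochberg over the 36 pairs). The share among pairs of other genes was not computed, so this count has no background beside it. Twist2 and Cdh2 ran in opposite directions (Pearson r = -0.80, p = 0.00027, adjusted p = 0.00972, Spearman rho = -0.47, p = 0.0332, adjusted p = 0.149, permutation tests). This relation rests on NPE tumors 3 and 1, which had the highest Twist2 and the lowest Cdh2. Without them r was -0.38 (permutation p = 0.105). It was -0.80 within NPE and -0.25 within PE tumors, -0.91 among title numbers 1 to 10, 0.13 among 18 to 23 and 0.30 among 28 to 35. Snai2 and Vim ran in the same direction (r = 0.65, p = 0.00141, adjusted p = 0.0254, rho = 0.55, p = 0.0116, adjusted p = 0.149, permutation tests). The sign was the same within NPE tumors (0.64), within PE tumors (0.80) and in each range of title numbers (0.73, 0.64 and 0.50), but r was 0.36 (permutation p = 0.127) without PE tumor 7 and NPE tumor 1, the tumors of lowest Snai2.

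The paralog pairs did not pass the threshold by Pearson r. Snai1 and Snai2 had r = 0.48 and rho = 0.49 (permutation p = 0.0284 and 0.0247, adjusted p = 0.204 and 0.149), and without the 2 tumors farthest in Snai1 r was 0.52. Twist1 and Twist2 had r = 0.55 and rho = 0.54 (permutation p = 0.0154 and 0.0135, adjusted p = 0.185 and 0.149), with 0.62 within NPE tumors but -0.65 within PE tumors, so the order of the PE tumors was opposite. Zeb1 could not be set beside Zeb2. For Cdh1 and Cdh2 the measures differed, with r = 0.36 (permutation p = 0.0983, adjusted p = 0.354) and rho = 0.67 (permutation p = 0.00092, adjusted p = 0.0331). Both cadherins therefore ranked in the same direction across tumors, while NPE tumors 1 and 3, of lowest Cdh2, had middling Cdh1 of 5.41 and 5.36. Without these tumors r was 0.70 (adjusted p = 0.0504, permutation). It was 0.32 within NPE and 0.77 within PE tumors. Cdh1, the classic target of repression by the other factors, had r of -0.24 with Snai1, -0.25 with Snai2, -0.22 with Twist2, -0.18 with Zeb1 and -0.16 with Prrx1, and 0.07 with Twist1. None of these passed the threshold.

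**Figure D4:**
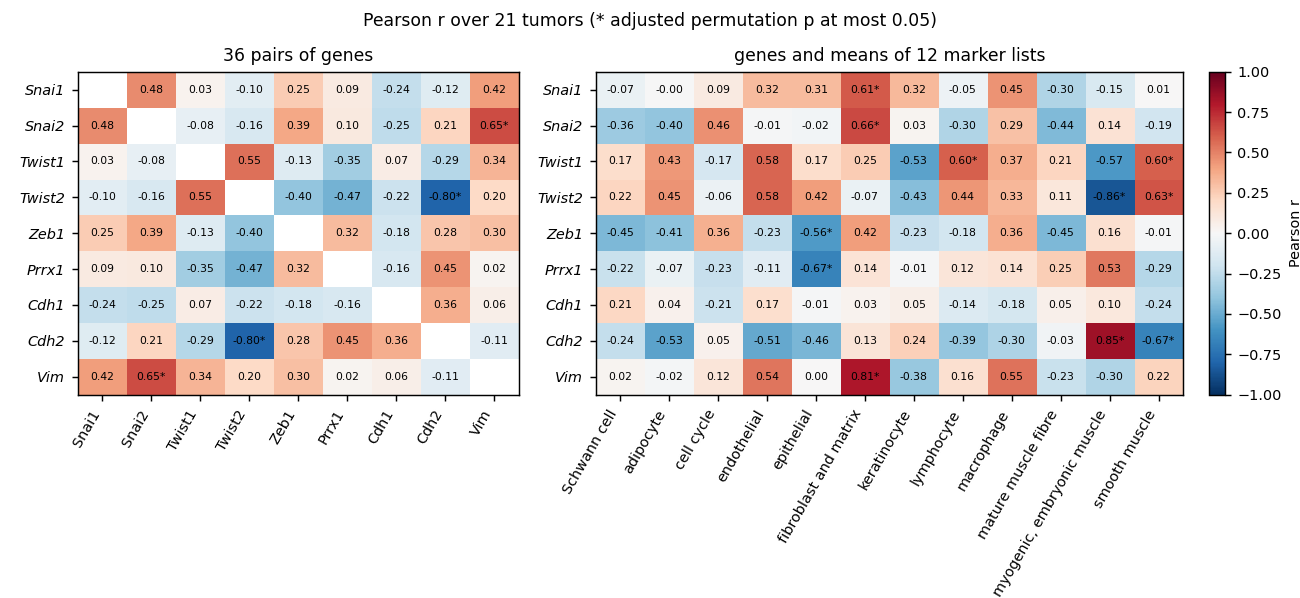
Pearson r over 21 tumors between the 9 genes (left) and between each gene and the mean log2 signal of 12 lists of cell type marker genes (right), with the value in each cell and an asterisk where the adjusted permutation p was at most 0.05. Twist2 and Cdh2 have opposite signs against the myogenic and embryonic muscle list, -0.86 and 0.85, and Vim has 0.81 with the fibroblast and matrix list.

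The tumors are mixtures, and in such bulk RNA fewer cells of a type and less RNA per cell cannot be told apart. Each gene was therefore set beside the mean of 12 lists of marker genes, and 11 of 108 relations passed an adjusted p of 0.05 (permutation tests, Benjamini-Hochberg over the 108). The share of all genes that would pass with these lists was not computed, so this count has no background and is not particular to the set. No gene of these lists was below the median of the background probes in all tumors, which is a weak criterion. The 95th percentile of those probes ran from 6.26 to 7.3 across the NPE and from 6.17 to 6.86 across the PE tumors. The means of the epithelial, keratinocyte, lymphocyte and Schwann cell lists lay below it in every tumor. Vim followed the fibroblast and matrix list, 12 genes such as Col1a1 and Postn (r = 0.81, adjusted p = 0.00108, rho = 0.73, adjusted p = 0.0205, permutation), and still did without NPE tumors 1 and 3, the 2 tumors farthest in Vim (r = 0.73, adjusted p = 0.0475). Its r was 0.85 within NPE and 0.75 within PE tumors, and 0.89, 0.56 and 0.79 in the 3 ranges of title numbers. Snai2 (r = 0.66, adjusted p = 0.0301, rho = 0.62, adjusted p = 0.0594) and Snai1 (r = 0.61, adjusted p = 0.0410, rho = 0.71, adjusted p = 0.0234, permutation) also followed this list. Without the 2 farthest tumors r was 0.31 for Snai2 (adjusted p = 0.529, permutation; PE tumor 7 and NPE tumor 1 left out) and 0.57 for Snai1 (adjusted p = 0.177, permutation; NPE tumors 11 and 5 left out), so neither passed the threshold. The mean of the list ran from 8.50 to 9.79 across the NPE and from 9.03 to 9.86 across the PE tumors, and 7 of its 12 genes had a higher and 5 a lower mean in NPE tumors.

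Twist2 and Cdh2 followed the myogenic and embryonic muscle genes in opposite directions, and followed the mature muscle fibre genes in neither. The mean of 12 mature fibre genes had r = 0.11 with Twist2 (adjusted p = 0.810) and -0.03 with Cdh2 (adjusted p = 0.988, permutation tests). The list of myogenic regulators and embryonic muscle genes, 11 genes such as Myod1 and Myog, had r = -0.86 with Twist2 (adjusted p = 0.00270, rho = -0.55, adjusted p = 0.127) and r = 0.85 with Cdh2 (adjusted p = 0.00324, rho = 0.62, adjusted p = 0.0594, permutation tests). Without NPE tumors 1 and 3, r was -0.54 for Twist2 (permutation p = 0.0172) and 0.48 for Cdh2 (permutation p = 0.0383), neither past the threshold after adjustment. The mean of this list was 5.83 in NPE tumor 3 and 7.70 in NPE tumor 1, the lowest of all tumors, and ran from 5.83 to 9.40 across the NPE and from 8.31 to 9.24 across the PE tumors. Within PE tumors r was -0.10 for Twist2 and 0.75 for Cdh2. Among title numbers 18 to 23 the signs were the other way, 0.55 for Twist2 and -0.27 for Cdh2. Twist1 ran against the same list with r = -0.57 (adjusted p = 0.113), which passed by rank (rho = -0.72, adjusted p = 0.0205) and without NPE tumors 1 and 3 (r = -0.72, adjusted p = 0.0238, permutation tests), where the other 2 did not. Its r was -0.58 within NPE and -0.26 within PE tumors, and -0.57, -0.59 and -0.76 in the 3 ranges of title numbers.

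Smooth muscle genes moved with the same genes. The mean of 6 such genes, among them Acta2 and Myh11, had r = -0.67 with Cdh2 (adjusted p = 0.0212, rho = -0.68, adjusted p = 0.0305), 0.63 with Twist2 (adjusted p = 0.0301, rho = 0.42, adjusted p = 0.407) and 0.60 with Twist1 (adjusted p = 0.0417, rho = 0.40, adjusted p = 0.410, permutation tests). Without the 2 tumors farthest in each gene, these r were -0.62, 0.50 and 0.52, and none passed the threshold (adjusted p = 0.123, 0.228 and 0.221, permutation tests). Among title numbers 18 to 23 the signs were the other way, with 0.59 for Cdh2, -0.10 for Twist2 and -0.38 for Twist1, and among 28 to 35 Cdh2 had 0.12. Within PE tumors they were -0.73, 0.43 and -0.50, and that of Twist1 was 0.66 within NPE tumors. All 6 smooth muscle genes had a higher mean in NPE tumors, and the mean of the list ran from 6.76 to 10.35 across the NPE and from 7.22 to 8.27 across the PE tumors. With that mean as a covariate the log2 fold change was 0.17 for Twist2 and -0.14 for Cdh2, and with the mean of the myogenic list it was 0.22 for Twist2 and -0.24 for Cdh2.

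The 3 remaining relations past the threshold were those of Prrx1 and Zeb1 with the epithelial list and of Twist1 with the lymphocyte list. The mean of 15 epithelial genes such as Epcam and Krt8 had r = -0.67 with Prrx1 (adjusted p = 0.0212, rho = -0.54, adjusted p = 0.127) and -0.56 with Zeb1 (adjusted p = 0.0441, rho = -0.55, adjusted p = 0.127, permutation tests). Their signs were the same within each group, -0.61 in NPE and -0.88 in PE tumors for Prrx1, and -0.59 in NPE and -0.49 in PE tumors for Zeb1. Without the 2 farthest tumors they were -0.57 for Prrx1 and -0.40 for Zeb1, neither past the threshold (adjusted p = 0.183 and 0.392, permutation tests). The epithelial mean ran only from 3.71 to 4.11 across the NPE and from 3.68 to 4.05 across the PE tumors, and Cdh1 itself had r = -0.01 with it. Twist1 had r = 0.60 with the mean of 7 lymphocyte genes (adjusted p = 0.0417, rho = 0.51, adjusted p = 0.170, permutation tests), 0.47 without the 2 farthest tumors (adjusted p = 0.273), 0.67 within NPE and -0.30 within PE tumors. That mean ran from 3.74 to 5.11 across the NPE and from 3.77 to 4.39 across the PE tumors. What part other cells had in the levels of these factors was not tested.

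**Figure D5:**
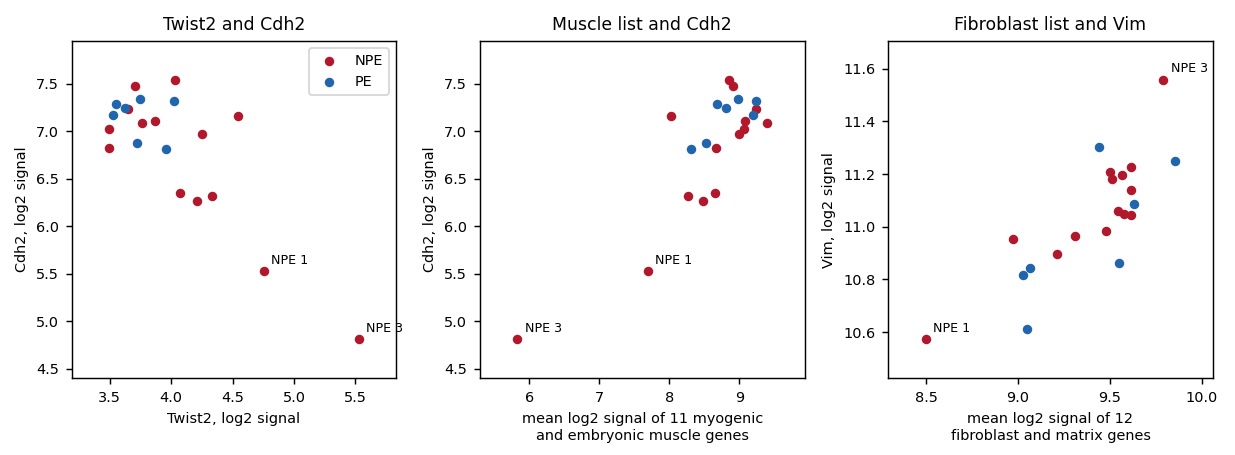
Log2 signal of Cdh2 against that of Twist2 (left) and against the mean log2 signal of 11 myogenic and embryonic muscle genes (middle), and of Vim against the mean of 12 fibroblast and matrix genes (right), with 1 point per tumor in red for NPE and blue for PE. NPE tumors 3 and 1 lie apart from the other tumors in the left and middle panels, and in the right panel they are the highest and the lowest Vim.

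The genes whose signals were most like each member, over 21 tumors and as a description without a test, were not other members. For Twist2 they were Plac9a, Nap1l5 and Plac9b (r = 0.91, 0.91 and 0.89). For Cdh2 they were Zfp568, Pacs2 and Myh3, the embryonic myosin heavy chain (0.90, 0.90 and 0.89). For Vim they were Aebp1, Glipr1 and Gnpda2 (0.84, 0.83 and 0.82). For Snai1 they were Fam210b, Ppp1r15b and Gm13889 (0.85, 0.80 and 0.78), and for Snai2 they were Tmsb10, Sdc3, a syndecan, and Acsl4 (0.81, 0.79 and 0.79). Mctp1, Fam83f and Snw1 were closest to Twist1 (0.87, 0.81 and 0.81), and Ttc3, Zkscan1 and Chic2 to Zeb1 (0.89, 0.89 and 0.87). Jmy, Megf11 and Olfr59 were closest to Cdh1 (0.76, 0.76 and 0.75), and Tceal7, Gdf7 and Gpr37 to Prrx1 (0.78, 0.77 and 0.76). Each trio was picked as the highest of 19505 genes, so the size of r is itself no result.

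The partners of these factors did not pass the threshold either. Among 14 other EMT factors and their partners, 3 had a higher and 11 a lower mean in NPE tumors (median log2 fold change -0.13), with 0 past an adjusted p of 0.05 and 4, all lower, past an unadjusted p of 0.05, which 8.41% of all probe sets passed in either direction. These were the E-proteins Tcf4 (-0.21) and Tcf3 (-0.26), which pair with Twist, and Id1 (-0.35) and Id3 (-0.33), which hold E-proteins away from DNA. Of 10 corepressors that Snail and Zeb proteins recruit, 9 had a lower mean (median -0.19), 0 passed after adjustment and 3 did before it, beside the same 8.41%. These were Ezh2, which methylates histone H3 (-0.45, adjusted p = 0.465, limma), Suz12, its partner in the Polycomb complex (-0.27), and Ajuba, a LIM protein (-0.41). The 7 cell cycle genes had a lower mean as well, Top2a by a log2 fold change of -0.59 (adjusted p = 0.550, limma) and Aurkb by -0.46. The mean of these 7 ran from 4.54 to 6.96 across the NPE and from 5.64 to 7.23 across the PE tumors, and their part in the corepressor values was not tested.

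Of 18 other cadherins, 9 had a higher and 9 a lower mean in NPE tumors (median 0.00), 0 passed after adjustment, and 1 higher and 3 lower ones passed before it, again beside 8.41% of all probe sets. Cdh15, the M-cadherin of muscle satellite cells, averaged 7.57 ± 0.81 in NPE and 8.33 ± 0.21 in PE tumors (s.d., log2 fold change -0.76, adjusted p = 0.519, limma). Cdh23 (-0.87) and Cdh6 (-0.80) were lower and Cdh19 (0.24) higher at that unadjusted p. Cdh19 was at background level, with a mean signal of 2.30 for NPE and 2.06 for PE. The median of the background probes was at least 2.64 on every array, so its difference cannot be read as a change of the gene. Of the 18 cadherins, 1 lay below this median in all tumors. None of 8 catenins, the proteins that tie cadherins to actin, passed before or after adjustment, and 3 had a higher and 5 a lower mean (median -0.07). Of 11 genes for TGF-beta ligands, receptors and Smads, which induce EMT factors in many cells, 2 had a higher and 9 a lower mean (median -0.11) and 0 passed after adjustment. Before it, Tgfbr3, the betaglycan co-receptor, was higher (0.96, adjusted p = 0.513, limma) and Tgfb2, a ligand, lower (-0.67, adjusted p = 0.530). Of 10 other intermediate filament genes, 3 had a higher and 7 a lower mean (median -0.08). The 1 past an unadjusted p of 0.05 was Synm, which encodes synemin, a partner of desmin and vimentin in muscle, at 5.66 ± 0.71 in NPE and 4.71 ± 0.26 in PE tumors (s.d., log2 fold change 0.96, adjusted p = 0.407, limma).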

How the data were processed

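Each of 14 NPE and 7 PE tumors gave 1 Clariom S Mouse array. The deposited log2 values were made by the authors with RMA, that is background correction, quantile normalization and summary over the probes of a probe set, in Affymetrix Expression Console 1.1 according to the labels. Quantile normalization makes arrays alike in distribution, and low signals compress differences. Precision is limited by the number of arrays. Of 28846 probe sets, 94 controls and 6546 probe sets named MG- were left out, which leaves 22206, of which 19572 had 1 symbol, 2634 none. The probe set of highest mean was taken for each gene. The array annotation can be old.

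Groups came from the labels. The 2 genotypes were tested against each other with limma 3.58.1 (lmFit, eBayes; R 4.3.3), 2-sided and with no covariate, and p-values were adjusted by Benjamini-Hochberg over all 22206 probe sets. The spread test used absolute deviations scaled for group size, and the same fit. On simulated data the comparison of means recovered probe sets given changes larger than any difference found for these genes, with the share not given here. Smaller changes were not tried, so how often differences of the size found would pass is not known. The spread test passed none of its changed probe sets after adjustment, so a spread that misses the threshold there says little. Correlations used 100000 permutations, or all permutations for up to 8 tumors. Python 3.11.15 and matplotlib 3.10.9 were used. The same tumor number in both groups did not pair the tumors (2 of 7 pairs had deviations correlated at over 0.1). Alternatives changed the variance model, weights, normalization, probe sets, tumors, blocks and covariates. Leaving out NPE tumors 1 and 3 together, and the covariates for the myogenic and smooth muscle lists, were added after seeing the data. The 10 genes and all lists were chosen with earlier results of these data known. Genes named are the members, the 3 genes most like each, up to 4 of each list by p, and pairs of paralogs or past the threshold. The study calls the tumors biologically independent. The labels do not name the mouse of each, so p-values measure the spread between tumors.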

Additional observations from a re-analysis of the deposited data

Results flagged for a closer look

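One value stood apart within its group. Cdh1 had a log2 signal of 4.71 in PE tumor 6, and the gap to the next PE tumor was 0.645 of the range of the 7 PE tumors, above Dixon's critical value for 7 values. Such a gap is found by chance in about 1 in 20 groups, and 9 genes were examined in PE tumors.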

How the results depend on the processing

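No member passed an adjusted p of 0.05 in any alternative, and the lowest was 0.130, for Twist2 with the replicate block. That block paired tumors 1 to 7 of each group by number, which the data do not bear out, and left the other NPE tumors out. Its fit passed 243 probe sets, where the fit of all tumors passed 2, so the 2 counts are not of the same tumors. The count was 14 with blocks for the title ranges and 355 in the tumors numbered 28 to 35. It was 1 with ordinary least squares, array weights, bright probe sets only, like tumors averaged, the Y-linked, mature muscle or smooth muscle covariate, or NPE tumors 1 and 3 left out, and 1 to 3 with single tumors left out. The cause was not tested. Signs turned in some settings, also for the 2 widest differences, Twist2 and Cdh2. With array weights Prrx1 was 0.088. With the ranges as a block, where numbers 1 to 10 add no difference, Snai2 was 0.11, Cdh1 0.14, Cdh2 0.078 and Prrx1 0.053. Among numbers 18 to 23, with 1 NPE tumor, Snai1 was 0.12, Twist1 -0.049, Zeb1 0.045, Vim -0.085 and Prrx1 0.24. Among 28 to 35, Snai2 was 0.20, Twist2 -0.054, Cdh1 0.48 and Cdh2 0.22. Prrx1 was 0.057 with the epithelial covariate, 0.049 with the myogenic and 0.056 with the smooth muscle one, and Snai2 was 0.11 with the mature muscle and 0.026 with the smooth muscle covariate, where Twist1 was -0.011. Without NPE tumors 1 and 3, Snai2 was 0.032 and Prrx1 0.061. With single tumors left out, Prrx1 ran from -0.066 to 0.056 and Snai2 from -0.098 to 0.044, and the spread difference from -0.020 to 0.14 for Cdh1 and from -0.0030 to 0.10 for Snai2. The spread test passed 4 probe sets, 0 with deviations from the median, with like tumors averaged or without NPE tumors 1 and 3, and 0 to 22 with single tumors left out.

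Of the 2 pairs of genes past the threshold, 1 was left with like tumors averaged or among numbers 1 to 10 (where 3 passed in all), and 0 by Spearman's rho (where 1 other passed, Cdh1 with Cdh2), within NPE or PE tumors, within numbers 18 to 23 or 28 to 35, or without the farthest or NPE tumors 1 and 3. Of 11 relations to lists, 8 passed with like tumors averaged (9 in all), 3 within NPE tumors, 3 by rho (4 in all), 1 without NPE tumors 1 and 3 (2 in all), 1 without the 2 farthest, and 0 within PE tumors or any number range. The relation added by rho and without NPE tumors 1 and 3 was Twist1 with the myogenic list. Among 18 to 23, r turned to 0.13 for Twist2 with Cdh2, -0.66 for Twist1 with Twist2, -0.38 for Twist1 and -0.10 for Twist2 with smooth muscle, -0.37 for Twist1 with lymphocytes, 0.55 for Twist2 and -0.27 for Cdh2 with the myogenic list, and 0.59 for Cdh2 with smooth muscle. Among 28 to 35, it was 0.30 for Twist2 with Cdh2 and 0.12 for Cdh2 with smooth muscle. Within PE tumors, it was -0.65 for Twist1 with Twist2, -0.50 with smooth muscle and -0.30 with lymphocytes. Only 6 and 7 tumors lie in those ranges. Dim probe sets (Snai1, Twist1, Twist2, Cdh1) were removed by the filter on background and have no value there.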
